A study of Nothobranchius furzeri with 6 samples.

Results

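The microRNA family mir-135 is 1 of 324 rows of a count table made from small RNA of killifish brain. It was taken as the row named exactly mir-135, listed as nfu-mir-135, and was chosen because it was abundant and because its level differed between libraries. Its level and spread are therefore given as a description, with no test. The brains came from males of the turquoise killifish Nothobranchius furzeri, strain MZM-04/10p. This annual fish lives for months and is a model of vertebrate ageing. All 6 libraries were from animals aged 39 weeks and form 1 group, so there is no contrast of age, sex, strain or treatment. The labels give each library its own code but do not say that each came from a separate animal, nor whether tissue was pooled. The spread between libraries may therefore be technical. The table carries no sequence, arm or coordinates for the row.

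MicroRNAs are short RNAs that guide Argonaute proteins to messenger RNAs, mostly through pairing of the seed near their 5′ end, and so lower the output of those messages. The mir-135 family is conserved in vertebrates and is expressed in brain. In mouse serotonergic neurons it is known to repress the serotonin transporter and a serotonin receptor, and in mouse cortical neurons it is known to promote axon growth by repressing the transcription factor Klf4. In the mouse midbrain it is known to limit Wnt signalling and the dopaminergic progenitor pool, and in human colorectal tumours it represses APC, a brake on Wnt signalling. Roles in killifish brain are not assumed here.

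The libraries held 11924483 to 16597229 counts, and 214 rows had a mean of at least 10 counts. Levels are CPM, the count relative to the library total, after scaling with edgeR's TMM factors, which ranged from 0.958 to 1.05. Families that mark neural tissue were present in each library: 9 neuronal rows held 9.57% to 14.2% of counts, mir-9 held 5.04% to 5.57% and the oligodendrocyte rows held 1.66% to 2.06%. These are bulk libraries, so fewer cells of a type and less RNA per cell cannot be told apart.

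The mir-135 row differed 4.13-fold between the highest and the lowest library. It was counted 60481 times in library 1 and 83458 times in library 3. It was counted 29849, 16797, 14587 and 23240 times in libraries 2, 4, 5 and 6. After scaling, libraries 1 and 3 stood at 4915 and 4801 CPM, while libraries 2, 4, 5 and 6 stood at 2027, 1434, 1190 and 1898 CPM. Libraries 1 and 3 were thus high and close to each other, and the other 4 were all lower. The mean was 2711 ± 1691 CPM (SD, n = 6) and the median 1962 CPM. As a share of all counts, mir-135 held 0.275% ± 0.180 (SD, n = 6), from 0.116% in library 5 to 0.505% in library 1.

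The gap lay between library 3 and library 2, at 2.37-fold. Library 1 exceeded library 3 by only 1.02-fold, and library 2 exceeded library 5 by 1.70-fold. On the log2 scale the gap was 1.24, larger than the whole range of 0.77 among libraries 2, 4, 5 and 6. The 6 values thus fell into a pair and a looser set of 4.

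Counting error was small beside these differences. Exact (Clopper-Pearson) 95% intervals ran from 4876 to 4954 CPM for library 1 and from 4769 to 4834 CPM for library 3. Those of libraries 2 and 6 ran from 2004 to 2050 CPM and from 1874 to 1923 CPM. Those of libraries 4 and 5 ran from 1412 to 1455 CPM and from 1171 to 1210 CPM. No interval overlapped another, and their half-widths were 0.677% to 1.63% of the value. They take in the counting error of reads alone, and are too narrow where several reads are PCR copies of the same molecule. They also treat the TMM factors as exact. As unscaled shares of counts, libraries 1 and 3 held 0.505% and 0.503%, close enough for their intervals to overlap.

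**Figure D1:**
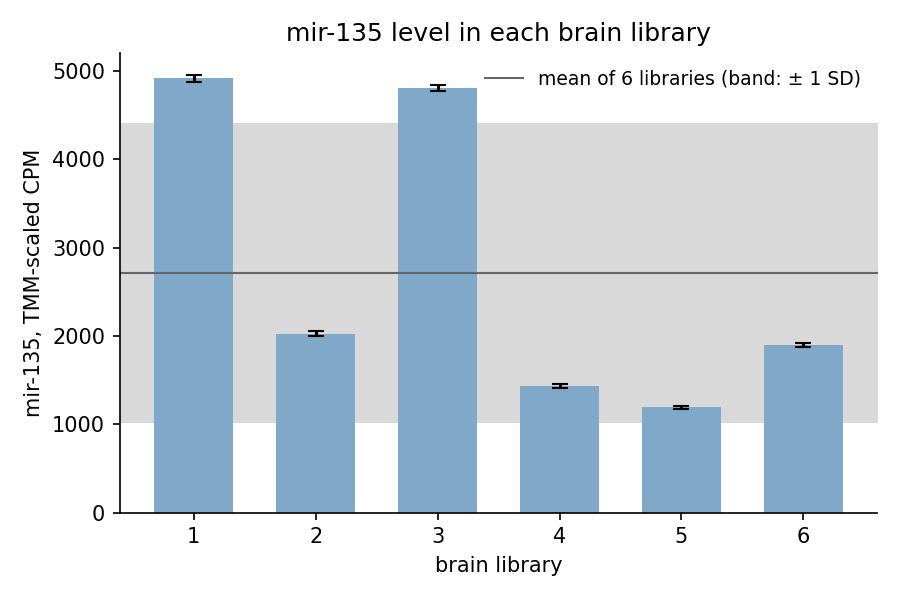
Bars show the TMM-scaled CPM of mir-135 in each of the 6 brain libraries, with exact 95% intervals for counting error as whiskers, and the line and grey band show the mean and 1 SD over the 6 libraries. Libraries 1 and 3 stand at 4915 and 4801 CPM, above the band, and the other 4 stand between 1190 and 2027 CPM.

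By its mean level mir-135 ranked at position 30 of the 214 rows. Within single libraries its position was 21 in library 1, 24 in library 3, 34 in library 2, 35 in library 6, 41 in library 4 and 43 in library 5. Its place among other families therefore depended on the library. The rows next above it in mean level were mir-129 at 3803 ± 552 CPM, mir-103 at 3779 ± 332 CPM and mir-15 at 2802 ± 444 CPM (SD, n = 6 for each). Of these, mir-129 is a neuronal family, mir-103 is broadly expressed and mir-15 is known as a brake on the cell cycle. The rows next below were mir-187 at 2450 ± 534, sensory mir-182 at 2229 ± 296 and mir-3596 at 2163 ± 361 CPM (SD, n = 6 for each).

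For each of these 6 neighbours the mean log2 ratio to mir-135 was smaller than its SD over libraries. They were chosen as the nearest in level, and the SD includes the wide spread of mir-135 itself. The comparison is therefore no test of a difference. The log2 ratio of mir-135 to mir-15 was -0.26 ± 1.02, and to mir-187 it was -0.05 ± 0.91 (SD, n = 6). The row of mir-135 exceeded mir-129, mir-103, mir-15, mir-182 and mir-3596 in 2 of 6 libraries each, and mir-187 in 3 of 6. The kit ligates adaptors to RNA ends with an efficiency that depends on sequence, so ratios between families mix abundance with that bias.

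Among abundant families mir-135 had the widest spread between libraries. Of the 47 rows with a mean of at least 1000 CPM, it had the highest SD of log2(CPM + 1), at 0.87. The next was mir-221, a family linked to cell growth, at 0.51, followed by the neuronal families mir-138 at 0.47 and mir-153 at 0.37. The median over the 47 rows was 0.18. A log2 SD of at least 0.5 was reached by 2 of these rows, or 4.26%, and by 32 of all 214 rows, or 15%.

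The per-library values show how the abundant rows next in order differ in pattern. The level of mir-221 was 15261, 21066, 21821, 36201, 37260 and 31708 CPM in libraries 1 to 6. It was low in libraries 1, 2 and 3 and high in libraries 4, 5 and 6. The level of mir-138, known to limit dendritic spine size in rat neurons, was 4387, 4346, 3206, 5032, 5991 and 2442 CPM. Library 6 was lowest and library 5 highest for it. The level of mir-153, a family known to target synuclein and synaptic messages, was 8371, 9483, 6757, 9965, 5869 and 11805 CPM, so that library 5 was lowest and library 6 highest. Neither mir-138 nor mir-153 separated libraries 1 and 3 from the rest.

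Another 13 rows had a larger log2 SD than mir-135, 10 of them named families, and each had a mean of at most 598.4 CPM. The highest of these was endocrine mir-375. By edgeR's dispersions, the biological coefficient of variation of mir-135 was 0.519. This is its spread beyond counting error, shrunk toward a fitted trend. The trend at its abundance was 0.328, which need not be the typical value of rows at that level. The ratio of these values ranked at position 12 of 214. Over libraries 2, 4, 5 and 6 alone, the log2 SD of mir-135 was 0.36, at position 5 of the 47 abundant rows, against a median of 0.18 over the same libraries. Libraries 1 and 3 were left out as the farthest from the median of mir-135, so a fall in its SD follows from that choice. The other rows lost the same libraries, whichever lay farthest for them, so this position is not a like comparison.

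**Figure D2:**
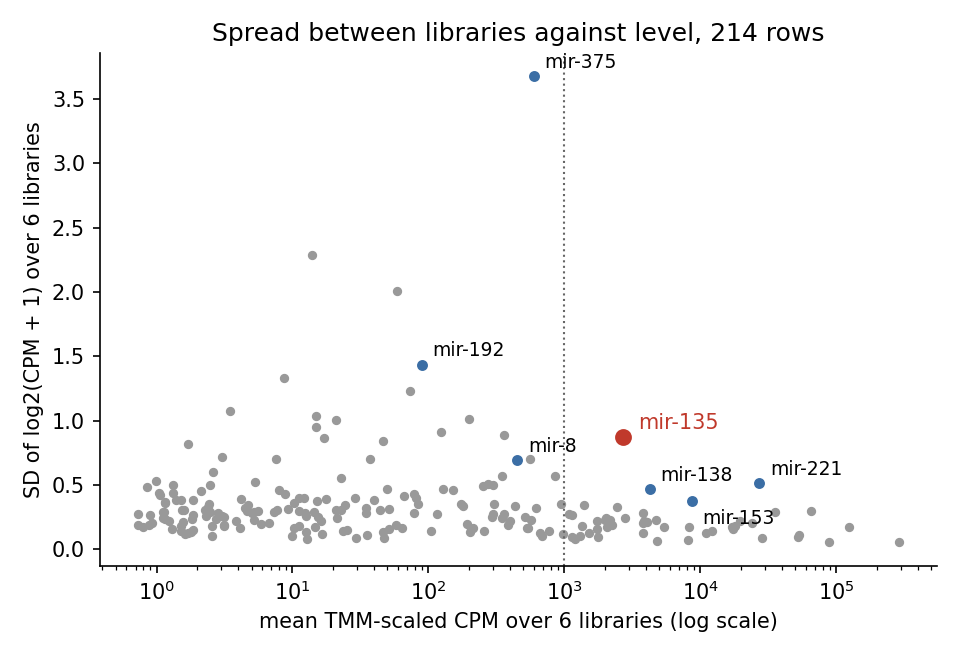
Each point is 1 of 214 rows, with its mean TMM-scaled CPM over 6 libraries on a log axis and its SD of log2(CPM + 1) on the vertical axis, and the dotted line marks 1000 CPM. The red point for mir-135, at 0.87, is the highest to the right of the line, where mir-221 follows at 0.51.

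Which other rows followed mir-135 was asked over the 6 libraries. For the 213 other rows, Spearman's rho and Pearson's r with mir-135 were computed on log2(CPM + 1), with an exact two-sided permutation test over all 720 pairings and Benjamini-Hochberg adjustment over the 213 rows. No row passed an adjusted p of 0.05 for r or for rho, which is 0% of the rows. The smallest adjusted p was 0.444 for r and 0.394 for rho in these exact tests. An unadjusted exact p under 0.05 was found for 16 rows by r and for 13 by rho. The smallest p that 720 pairings allow is 0.00139, so a lone row could not pass over 213 rows. Because libraries 1 and 3 stood apart, r over 6 libraries partly asks whether a row differed in these libraries. It was therefore given again without both, over 4 libraries, which are too few for a test.

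The r values of the other rows were centred near 0. Their median was 0.00, with 107 rows above 0 and 106 below. An r of at least 0.9 was reached by 1 row, or 0.469% of 213, and an r of at most -0.9 by 5 rows, or 2.35%. For comparison, the median row of the table had 2 partners with an r of at least 0.9 and 1 partner with an r of at most -0.9. Among the 46 other abundant rows, 21 had an r above 0 and 25 below, with a median of -0.08.

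**Figure D3:**
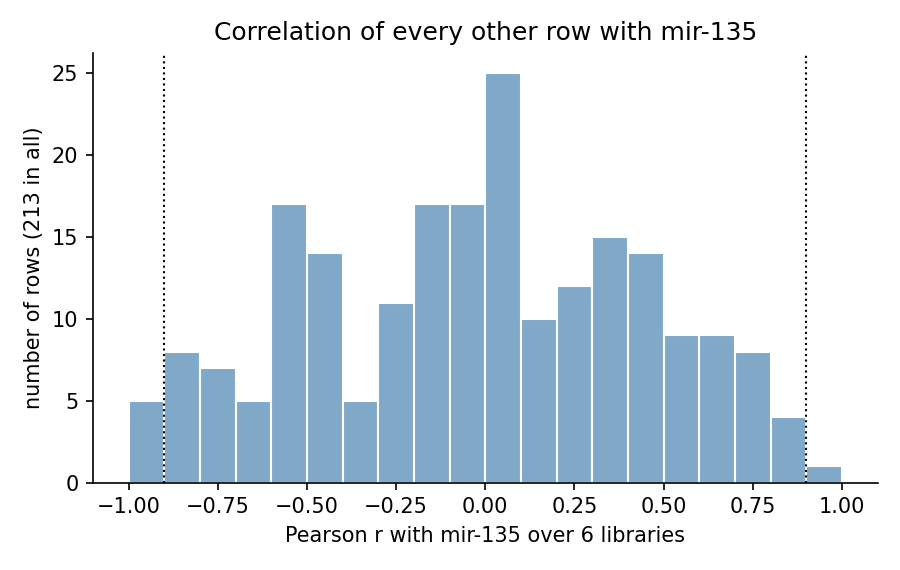
The histogram shows Pearson's r of log2(CPM + 1) with mir-135 over 6 libraries for the 213 other rows, in steps of 0.1, and dotted lines mark 0.9 and -0.9. A single row lies above the upper line and 5 rows lie below the lower one.

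The row with the highest r was mir-124, a classical neuronal family that promotes neuronal differentiation. It stood at 4528, 4106, 4885, 3364, 3423 and 4109 CPM in libraries 1 to 6. Libraries 3 and 1 were its highest and libraries 4 and 5 its lowest, as for mir-135. Its r was 0.93 (exact permutation p = 0.0278, adjusted p = 0.493) and its rho 0.83 (exact p = 0.0583). Over the 4 libraries other than 1 and 3, r was 0.92, and with any single library left out it lay between 0.88 and 0.97. The size of the change was much smaller than that of mir-135: mir-124 ranged 1.45-fold, and its fitted slope was 0.23 log2 units per log2 unit of mir-135. Counts of mir-135 per count of mir-124 were 1.09, 0.493, 0.983, 0.426, 0.348 and 0.462, so that mir-135 exceeded mir-124 in library 1 only.

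The other rows of the 8 with the highest r were mir-549, mir-455, mir-326, mir-143, mir-230, mir-30 and mir-451, with r from 0.88 down to 0.74. The level of mir-549 was 59.2, 50.9, 53.9, 45.4, 43.9 and 53.3 CPM in libraries 1 to 6. The level of mir-455, a family studied in cartilage, was 764.5, 656.2, 683.3, 618.1, 625.3 and 607.2 CPM. Both were highest in library 1, with mir-549 lowest in library 5 and mir-455 lowest in library 6. Smooth-muscle mir-143 stood at 5568, 4758, 5124, 3938, 3790 and 5279 CPM, and red blood cell mir-451 stood at 461.6, 384.5, 387.2, 270.2, 159.2 and 416.5 CPM. For these families library 6 was as high as library 3 or higher, which was not so for mir-135. The broadly expressed family mir-30 ranged only 1.23-fold, from 9849 to 12095 CPM.

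Of these 8 rows, mir-230 and mir-326 were near the floor of the data. The row mir-230 had 11, 6, 23, 5, 8 and 8 counts, and mir-326 had 21, 25, 31, 16, 15 and 16 counts in libraries 1 to 6. Over the 4 libraries other than 1 and 3, the r of 7 of the 8 rows stayed above 0, with a median of 0.81, while mir-230 had -0.33. Membership of the set depended on single libraries. Without library 5 none of these 8 rows was among the 8 with the highest r, and without library 1 only 1 was. Without library 2, 3, 4 or 6, the number was 7, 5, 5 and 6. The r of the 8 rows themselves stayed high. It was 0.668 to 0.897 without library 5, where 7 other rows reached at least 0.9, and 0.666 to 0.947 without library 1.

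The 8 rows with the lowest r had a median r of -0.90, against 0.83 for the 8 with the highest. The lowest r was that of mir-132b, a row named for the activity-regulated neuronal family mir-132. It stood at 4615, 5259, 4849, 6213, 6043 and 5742 CPM in libraries 1 to 6. Libraries 1 and 3 were its lowest and libraries 4 and 5 its highest, the reverse of mir-135. Its r was -0.95 (exact permutation p = 0.00417, adjusted p = 0.444) and its rho -0.94 (exact p = 0.0167). Over the other 4 libraries r was -0.82, and with any single library left out it lay between -0.98 and -0.89. The row ranged 1.35-fold.

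Of these 8 rows the widest range was that of mir-8, a name that also covers the miR-200 group of epithelial and olfactory families. It stood at 247.8, 357.2, 229.5, 731.6, 602.0 and 538.4 CPM in libraries 1 to 6. Libraries 3 and 1 were lowest and library 4 highest, with a 3.19-fold range. Its r was -0.94 (exact permutation p = 0.0111, adjusted p = 0.465), its rho was -0.89 (exact p = 0.0333) and its r over the other 4 libraries was -0.73. A ratio of counts within a library does not depend on the scaling between libraries. Per count of mir-8 there were 19.8, 5.67, 20.9, 1.96, 1.98 and 3.53 counts of mir-135, a 10.7-fold range that exceeds that of either row. Since mir-8 was picked for running opposite to mir-135, a ratio that ranges wider than either row follows from that choice.

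The abundant family mir-221, whose values stand above, had an r of -0.87 (exact permutation p = 0.0208, adjusted p = 0.493) and a rho of -0.94 (exact p = 0.0167). Over the other 4 libraries its r was -0.81. There were 0.322, 0.0962, 0.220, 0.0396, 0.0320 and 0.0599 counts of mir-135 per count of mir-221 in libraries 1 to 6, a 10.1-fold range. Libraries 1 and 3 were again the highest and library 5 the lowest. The wide range of this ratio also follows from the choice of mir-221 for its low r. The rows mir-135 and mir-221 thus had the widest and the next widest spread among the 47 abundant rows and ran in opposite directions.

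The remaining rows of the 8 with the lowest r were mir-423, mir-651, mir-592, mir-25 and pred_460, with r from -0.95 to -0.87. The level of mir-423 was 276.6, 345.0, 284.7, 419.2, 381.0 and 383.2 CPM. The level of mir-25, a paralogue of the growth-promoting miR-17-92 cluster, was 1683, 2005, 1713, 2083, 2702 and 1987 CPM. Both were lowest in libraries 1 and 3, with mir-423 highest in library 4 and mir-25 in library 5. The row mir-651 had only 11 to 33 counts and pred_460, a predicted feature, had 7 to 18 counts per library.

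Over the 4 libraries other than 1 and 3, the r of 7 of these 8 rows stayed below 0, with a median of -0.77, while mir-651 had 0.11. With a single library left out, 4, 7, 4, 6, 6 and 5 of the 8 rows remained among the 8 with the lowest r, for libraries 1 to 6 left out in turn. The rows chosen for r also ran together: all 28 pairs within the 8 highest and all 28 pairs within the 8 lowest had an r above 0. This follows in part from how they were chosen, since each was picked for its r with the same row.

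**Figure D4:**
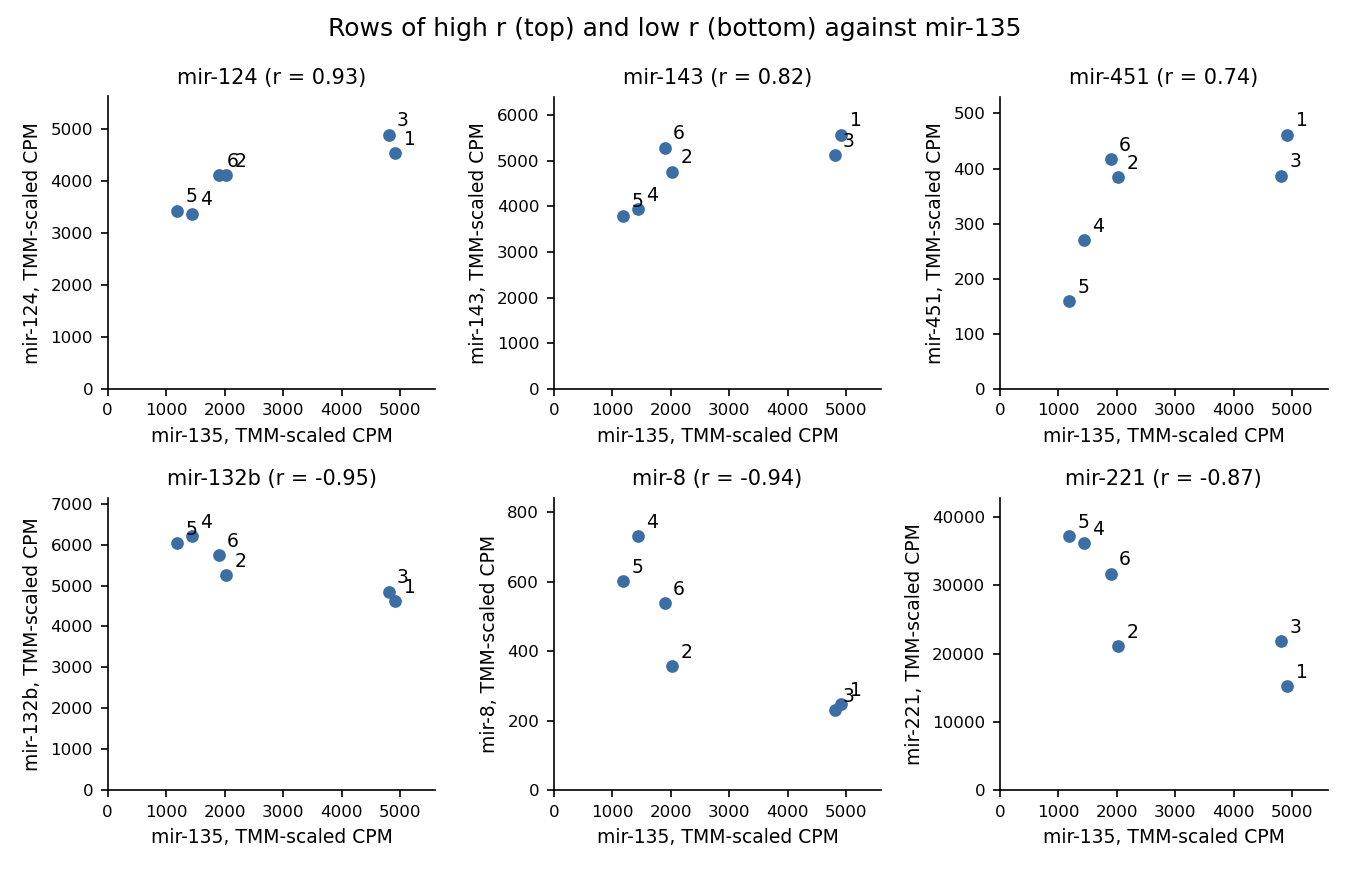
Each panel plots the TMM-scaled CPM of 1 row against that of mir-135, both on linear axes from 0, with a point for each of the 6 libraries labelled by its number and Pearson's r of log2(CPM + 1) in the panel title. Libraries 1 and 3 lie far to the right, where mir-124 is highest and where mir-132b and mir-8 are lowest.

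Likeness in size was also measured, as the SD of the log2 ratio of counts within each library, which needs no scaling. A row that did not vary would give 0.87, the log2 SD of mir-135 itself. The smallest values were 0.58 for mir-230, 0.59 for mir-451, 0.60 for mir-203, 0.62 for mir-944 and 0.64 for mir-1. Of these, mir-203 is known from skin and mir-1 from muscle. Libraries 1, 2 and 3 held skin-linked mir-203 at 34.7, 44.1 and 74.0 CPM, and it was lowest in library 5, at 18.9 CPM. Muscle mir-1 was at 27.0, 31.4 and 26.4 CPM in the same libraries and likewise lowest in library 5, at 10.9 CPM. For both, library 2 exceeded library 1, which was not so for mir-135. Even against its closest row by this measure, the ratio of mir-135 ranged 3.02-fold, and against mir-451 it ranged 2.72-fold. The narrowest range of this ratio over the 213 rows was that against mir-451, so no row tracked mir-135 to within that factor.

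Families grouped by known function were then set beside mir-135. Of 11 rows in the list of axon growth and regeneration, 3 had an r above 0 and 8 below, with a median of -0.73 against 0.00 over all 213 rows. The list spanned r from -0.87 for mir-221 to 0.93 for mir-124, and its most abundant row, mir-26, had -0.77. None of the 11 passed the adjusted p. At an unadjusted exact permutation p under 0.05 there was 1 row of positive r, against 1.88% of all rows, and there were 3 rows of negative r, against 5.63%. This list shares mir-9, mir-124, mir-132, mir-138 and mir-29 with the list of synaptic plasticity and spines, of which 5 rows had an r above 0 and 8 below, with a median of -0.39. In that list mir-132 had the lowest r, at -0.80, and mir-181, the most abundant, had 0.37, which turned to -0.33 over the 4 libraries other than 1 and 3. The r of the summed level was -0.85 for the axon list and -0.79 for the synaptic list, and -0.52 and -0.84 over those 4 libraries.

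Neuronal families did not run one way with mir-135. Their list shares mir-124, mir-128, mir-132, mir-137, mir-138 and mir-218 with the list of synaptic plasticity and spines. Of the 9 rows, 3 had an r above 0 and 6 below, with a median of -0.39. They held both the row with the highest r, mir-124, and the row with the lowest, mir-132b, and their most abundant row, mir-128, had an r of -0.73. The neuronal rows together held 10.5%, 10.9%, 9.57%, 14.2%, 11.0% and 11.4% of counts in libraries 1 to 6. The row mir-9, of neural progenitors and neurons, had an r of -0.60. Over the 4 libraries other than 1 and 3 the r of mir-9 was -0.05, and the r of the summed neuronal rows was -0.32 in place of -0.76. The oligodendrocyte rows had r of 0.22 for mir-219 and -0.11 for mir-338 over 6 libraries, and of 0.39 and 0.83 over the other 4. The r of their summed level turned from -0.10 to 0.86. Of families known to target serotonin genes in mouse, as mir-135 does, the row mir-16 had an r of 0.12, and 0.45 over the other 4 libraries. Hypoxia-linked mir-210, which is also in the list of axon growth and regeneration, had an r of -0.86 (exact permutation p = 0.0319, adjusted p = 0.493). Over the other 4 libraries its r was -0.9998. Values near 1 or -1 are easily reached over 4 points. Another row, with an r of 0.00 over 6 libraries, had 0.996 over these 4.

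Marker rows of other tissues were also set beside mir-135, and their part in its pattern was not tested. All 3 vessel wall rows had an r above 0, with a median of 0.49, and held 1.04%, 0.953%, 0.965%, 0.732%, 0.669% and 0.957% of counts in libraries 1 to 6. Both red blood cell rows had an r above 0, and held 0.0186% of counts in library 5 and 0.0643% in library 1. For both lists libraries 4 and 5 were lowest, as for mir-135, but libraries 2 and 6 were close to libraries 1 and 3. The r of the summed level was 0.71 for vessel wall and 0.65 for red blood cells, and 0.96 for each over the 4 libraries other than 1 and 3. The vessel wall rows did not all go that way over those 4 libraries: mir-126 had 0.99 and mir-143 had 0.91, while mir-145 had -0.36.

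Both endocrine rows had an r below 0, at -0.65 for mir-375 and -0.56 for mir-7. Together they held 0.0259%, 0.195%, 0.0614%, 0.158%, 0.163% and 0.0887% of counts in libraries 1 to 6, with the sum lowest in libraries 1 and 3. Neither row alone had that order. The row mir-375 was lowest in libraries 6 and 1, at 5.23 and 7.56 CPM, against 1574 CPM in library 2. The row mir-7 was lowest in libraries 1 and 2, at 244.3 and 349.9 CPM. The r of their summed level was -0.87, and -0.27 over the other 4 libraries. The 5 rows of sensory organs, retina and pineal all had an r above 0, with a median of 0.55 and a share of 0.968% to 1.22%. The r of their summed level was 0.69 over 6 libraries and -0.26 over the other 4. Over those 4 libraries mir-182, mir-183, mir-204 and mir-96 were below 0, but 4 points cannot show which libraries set the direction. All 3 muscle rows also had an r above 0, with a median of 0.47 and a share of 0.0763% to 0.131%. The r of their summed level was 0.49 over 6 libraries and 0.0058 over the other 4, where mir-133 had -0.04 and mir-1 had 0.998. In the list of epithelium and skin, mir-8 had -0.94 while mir-203 had 0.73 and mir-205 had 0.57. In the list of liver and gut, mir-122 had -0.74 while mir-192 had 0.71 and mir-194 had 0.64. The r of the summed level was -0.55 for epithelium and skin, opposite in sign to the median of 0.57, and 0.71 for liver and gut. Over the other 4 libraries these values were -0.59 and 0.38.

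The Hox-linked rows, known from hindbrain and spinal cord, had r of 0.51 for mir-10 and 0.01 for mir-196. They held 3.65%, 3.57%, 4.33%, 2.59%, 2.96% and 4.38% of counts in libraries 1 to 6, so that library 6 was highest and library 4 lowest. The r of their summed level was 0.51, and 0.69 over the other 4 libraries. This sum is almost wholly mir-10, since mir-196 had only 23 to 45 counts per library. The white blood cell and microglial rows were split, with 3 above 0 and 2 below and a median of 0.14. The r of their summed level was -0.36, and -0.20 over the other 4 libraries. Early-embryonic mir-430 had an r of -0.53, and -0.73 over the other 4. No row of any list passed the adjusted p in the exact permutation test.

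**Figure D5:**
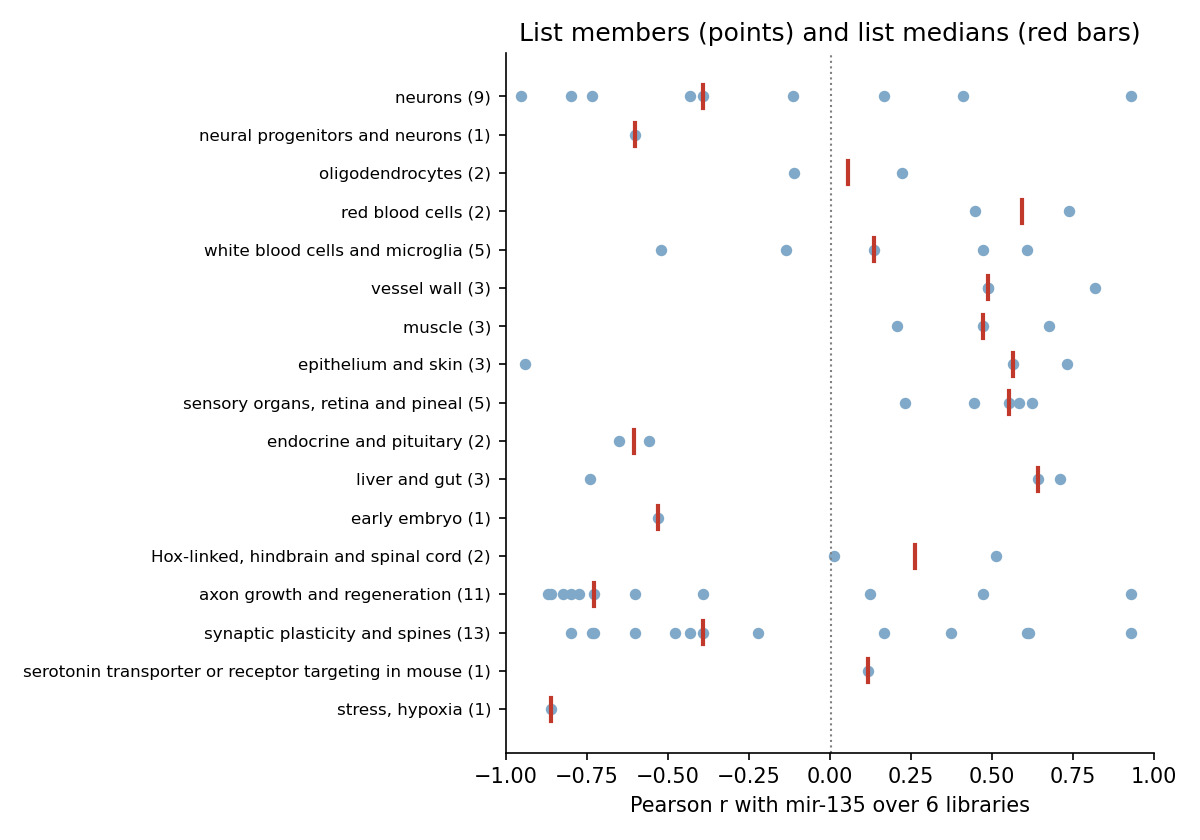
Each point is Pearson's r with mir-135 over 6 libraries for 1 row of a list, with the number of rows in brackets, the red bar marks the median of the list, and the dotted line marks the median of all 213 rows at 0.00. The neuronal list reaches from -0.95 to 0.93, while the vessel wall, muscle and sensory rows all lie above 0 and the endocrine rows below; without libraries 1 and 3 the summed sensory level turned to -0.26.

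Properties of the libraries were compared with mir-135 as well, over the same 6 points. Its log2 level had an r of 0.45 with total counts, and library 1, the highest for mir-135, had the next to lowest total at 11970136. The r was 0.04 with the share of predicted features, 0.73 with the share of mir-181 and 0.84 with the TMM factor itself. Over the 4 libraries other than 1 and 3 these values were -0.71, -0.14 and 0.34, and that with total counts was 0.68. With the number of rows of at least 1 count, r was 0.72 over 6 libraries and -0.31 over those 4. Libraries 1 and 3 had the highest TMM factors, at 1.03 and 1.05. Without the TMM factors mir-135 ranged 4.36-fold in place of 4.13-fold, so that the scaling narrowed its range.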

How the data were processed

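Small RNA of 6 killifish brain libraries was analysed from 1 table of raw counts deposited by the authors, whole numbers for 324 rows in 1 column per library. The TruSeq small RNA kit was used, per the labels' protocols. The submitters' processing notes name BWA 0.7.12-r1039, SAMtools 1.3.1-9, Trimmomatic 0.36 and bcl2fastq 1.8.4. Not given in the sources used here are the genome build, miRNA annotation, counter and handling of multiply mapped reads. Row names are mostly those of families, beside split names such as mir-132b and predicted features such as pred_460. Shifts between members or arms, or reads shared with near-identical families, cannot be seen in a family row.

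Counts were scaled with TMM factors over all rows (edgeR 4.0.16, R 4.3.3), and rows with a mean of at least 10 counts were kept. The pseudocount was 1 CPM. The exact two-sided p of a correlation was the share of 720 pairings with an absolute r at least as large (NumPy 2.4.6), and intervals came from SciPy 1.17.1. The scan was tested on simulated data whose followers changed as much as the row they followed. That run does not bear on weaker followers such as mir-124. Replicate numbers follow accession order and only name libraries. A count of 3, the detection floor, was 0.173 to 0.256 CPM. Rows were named by rule: the 8 highest and 8 lowest r, the 5 smallest SDs of the log2 ratio, the 3 neighbours on each side in level, those in spread among rows of at least 1000 CPM, and per list the highest r, lowest r and most abundant row. In 2-row or 3-row lists all rows could be named. Outside this rule, mir-183 and the rows shared between lists were named as well. The row mir-135 and all 17 lists were chosen with earlier results of these data known. The list families mir-141, mir-191, mir-206, mir-211 and mir-429 matched no row and mir-200 did not pass the filter. DESeq2 1.42.0 size factors, plain CPM, a table without mir-181, other pseudocounts and filters, Spearman's rho and left-out libraries were tried as alternatives.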

Additional observations from a re-analysis of the deposited data

How the results depend on the processing

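The 6 main quantities were the mean level, fold range and log2 SD of mir-135 and the counts of rows with r of at least 0.9, of at most -0.9 and past the adjusted p. Under DESeq2 size factors, plain CPM and TMM without mir-181, the fold range of mir-135 was 4.13 to 4.36 and its log2 SD 0.87 to 0.91. With 1 library left out the fold range was 3.43 to 4.13, the log2 SD 0.77 to 0.97 and the mean 2258 to 3031 CPM. Leaving out libraries 1 and 3 together, a choice made after seeing the data, gave a fold range of 1.70 and a log2 SD of 0.36. The number of rows with r of at least 0.9 was 1 in the main setting, 2 with plain CPM, 3 with no filter and 2 to 7 with 1 library left out. That of rows with r of at most -0.9 was 5 in the main setting, 3 with a pseudocount of 10, 8 by Spearman's rho and 4 to 7 with 1 library left out; the cause was not tested. With 5 libraries a given r is reached more easily. The adjusted p was passed by 0 rows in each setting run. The 16 rows of highest and lowest r kept their sign in each scaling, pseudocount, filter, rank and single left-out library that gave them a value. Without libraries 1 and 3 together, mir-230 turned to -0.33 and mir-651 to 0.11, and the other 14 kept theirs. The kept signs follow in part from how the 16 rows were chosen, since each was picked for an extreme r in these same libraries. No paired analysis was possible because all libraries form 1 group. With 6 libraries, the number of libraries and not the depth limits what can be tested for mir-135.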

Other observations

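The main axes of variation of the other 213 rows, found without mir-135, did not line up with it alone. The log2 levels were centred but not scaled, so rows with a wide spread weigh most. The log2 SD of mir-375 was 3.68, against a median of 0.27 over the 214 rows. The first component held 43.0% of the variance of the 213 rows and had an r of 0.46 with log2 mir-135 over 6 libraries. The second held 23.7% with an r of 0.72. The third held 14.2%, with an r of 0.49. The sign of each component was set so that its r with mir-135 was positive, so these signs carry no information. Over the 4 libraries other than 1 and 3 the r values were 0.41, 0.74 and -0.75. On the first component library 6 was highest, although mir-135 was at 1898 CPM there. Libraries 6 and 1, the highest on it, had the lowest mir-375, and libraries 2, 4 and 5, the lowest on it, had the highest. On the second, library 2 was highest and library 5 lowest. These are descriptions over 6 points, with no test.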
